A study of Mus musculus with 14 samples.

Results

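The binding sites described here are the peaks of the transcriptional co-repressor proteins Sin3A and Sin3B that lie on mouse chromosome 16, read gene by gene. Peaks were taken where the chromosome field of a peak list was chromosome 16, which gave 228 of the 7606 peaks in all (3%, exact Clopper-Pearson 95% interval 2.63 to 3.41). They fell into 27 of 759 Sin3A peaks in myotubes, 14 of 691 Sin3A peaks in myoblasts, 120 of 3769 Sin3B peaks in myotubes and 67 of 2387 Sin3B peaks in myoblasts. Overlapping peaks of the 4 lists were merged into 157 separate regions.

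The study used chromatin immunoprecipitation with sequencing (ChIP-seq), which maps where a protein sits on DNA, to compare Sin3A and Sin3B before and after muscle differentiation. The cells were C2C12, an established mouse line of muscle precursors whose genetic background the labels give as C3H. Myotubes were obtained from confluent cells by culture in 2% horse serum and were parted from undifferentiated cells with diluted trypsin. Myoblasts were the growing cells in 10% fetal bovine serum. The labels name 2 Sin3A myotube samples, 2 Sin3A myoblast samples, 5 Sin3B myotube samples and 2 Sin3B myoblast samples, with no transgene or deletion in any label, and 3 input samples that were not analysed here. The files of each group held identical peaks, so each group gave 1 list, there is no spread between replicates, and differences between lists carry no test. The labels give the same catalogue number for the Sin3A and the Sin3B antibody, so the lists are called by the protein named in the label. No marker of muscle cells can be read from peak lists, and the labelled cell types were not checked.

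Sin3A and Sin3B are related scaffold proteins that hold histone deacetylases together with accessory subunits. They do not bind a DNA sequence themselves and are brought to genes by sequence-specific factors. At promoters the complex is best known for removing acetyl groups from histones, and in muscle cells it is studied for its part in leaving the cell cycle and in setting the expression of contractile genes.

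The peaks were named by the nearest transcription start site (TSS) in the RefSeq table of mouse promoters, build GRCm38.p6. No source used here names the build of the peak files, so the match was checked first. With the positions taken as they stand, 176 of 228 peak centres (77.2%) lay within 1 kb of a TSS, and with every peak moved by 2 kb to the left or right only 4.39% and 3.51% did. The match ended past the Runx1 gene: the 9 regions that start at 94085290 or later, with 12 peaks, had 0 of 9 centres within 1 kb of a TSS. At a shift of -222 kb, 7 of these 9 did. That shift was the best of a search up to 600 kb either way. It and the point where the match ended were chosen for the most matches, so 7 of 9 is no separate check. The 12 peaks past that point were given no gene. Positions of peaks are those of the files, on chromosome 16 of a build not named.

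Promoters that the results turn on are shown here, to let a reader set the letters beside the peaks. Each is the RefSeq promoter of build GRCm38.p6, 300 bases from 250 before the TSS to 50 after it, 5′ to 3′ on the gene's strand. Capitals mark matches to the short motifs searched, on either strand: the ETS motif CCGGAAG, the NRF1 motif GCGCATGCG, the E2F motifs TTTCCCGC and TTTGGCGC, the SP/KLF motif GGGCGG, the CCAAT box, the YY1 motif AAGATGGCG, the MEF2 motifs CTAAAAATA and CTATTTATA and the myogenic E-box CAGCTG. The general E-box CANNTG was searched but is not in capitals. The first promoter is that of the gene with a peak in all 4 lists. The next 4 belong to the genes with the widest promoter peaks in a list made for cell cycle and DNA repair. The last pair, both promoters of Runx1, was chosen after the peak values had been seen.
Fam162a (chr16:36071512-36071811, minus strand): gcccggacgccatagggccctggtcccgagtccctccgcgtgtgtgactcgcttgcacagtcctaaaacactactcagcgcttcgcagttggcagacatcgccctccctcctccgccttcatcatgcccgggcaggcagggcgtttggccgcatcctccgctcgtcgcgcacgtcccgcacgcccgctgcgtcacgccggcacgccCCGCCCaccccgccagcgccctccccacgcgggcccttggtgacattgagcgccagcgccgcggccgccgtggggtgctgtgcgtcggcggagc
Nubp1 (chr16:10411688-10411987, plus strand): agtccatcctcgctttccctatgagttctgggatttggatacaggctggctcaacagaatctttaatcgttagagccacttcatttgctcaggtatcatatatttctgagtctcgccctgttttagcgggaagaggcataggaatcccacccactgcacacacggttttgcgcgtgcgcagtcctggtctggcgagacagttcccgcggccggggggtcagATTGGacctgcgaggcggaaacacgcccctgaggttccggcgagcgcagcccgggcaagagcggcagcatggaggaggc
Cdc45 (chr16:18811923-18812222, minus strand): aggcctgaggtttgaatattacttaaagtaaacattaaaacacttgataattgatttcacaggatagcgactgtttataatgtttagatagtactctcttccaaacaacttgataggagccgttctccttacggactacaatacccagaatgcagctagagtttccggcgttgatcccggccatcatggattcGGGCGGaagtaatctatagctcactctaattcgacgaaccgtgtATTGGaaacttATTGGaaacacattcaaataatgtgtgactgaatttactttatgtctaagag
Ranbp1 (chr16:18248645-18248944, minus strand): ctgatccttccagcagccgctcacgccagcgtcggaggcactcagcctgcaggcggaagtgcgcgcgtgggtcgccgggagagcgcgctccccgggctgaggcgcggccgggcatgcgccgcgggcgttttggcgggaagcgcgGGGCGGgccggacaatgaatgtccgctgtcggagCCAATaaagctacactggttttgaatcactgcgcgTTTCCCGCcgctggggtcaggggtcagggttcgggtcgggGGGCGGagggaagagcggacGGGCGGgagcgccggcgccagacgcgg
Rfc4 (chr16:23127681-23127980, minus strand): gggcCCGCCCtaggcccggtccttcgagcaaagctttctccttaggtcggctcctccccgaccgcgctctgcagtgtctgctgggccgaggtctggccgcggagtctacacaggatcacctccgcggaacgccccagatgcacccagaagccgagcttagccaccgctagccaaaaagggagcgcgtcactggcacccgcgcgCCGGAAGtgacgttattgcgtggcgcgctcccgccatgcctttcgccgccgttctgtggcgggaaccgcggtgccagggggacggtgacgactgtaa
Runx1 upstream start (chr16:92826025-92826324, minus strand): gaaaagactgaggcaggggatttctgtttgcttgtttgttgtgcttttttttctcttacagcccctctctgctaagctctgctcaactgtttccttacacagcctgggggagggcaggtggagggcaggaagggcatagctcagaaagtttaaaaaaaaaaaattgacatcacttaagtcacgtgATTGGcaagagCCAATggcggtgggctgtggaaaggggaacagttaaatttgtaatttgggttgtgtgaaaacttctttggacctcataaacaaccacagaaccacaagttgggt
Runx1 downstream start (chr16:92697280-92697579, minus strand): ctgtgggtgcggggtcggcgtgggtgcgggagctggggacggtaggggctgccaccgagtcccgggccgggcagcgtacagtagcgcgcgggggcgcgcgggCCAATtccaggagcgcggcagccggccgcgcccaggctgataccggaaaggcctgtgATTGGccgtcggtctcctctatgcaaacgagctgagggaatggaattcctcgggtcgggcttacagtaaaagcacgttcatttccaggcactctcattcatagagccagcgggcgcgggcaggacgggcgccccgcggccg

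Chromosome 16 peaks lay mostly at gene starts in 3 lists, while in the list of Sin3A in myoblasts the smaller part of them did. Within 1 kb of a TSS lay 23 of 27 Sin3A peaks in myotubes (85.2%, interval 66.3 to 95.8), against 4 of 14 Sin3A peaks in myoblasts (28.6%, interval 8.39 to 58.1). For Sin3B the counts were 99 of 120 in myotubes (82.5%, interval 74.5 to 88.8) and 50 of 67 in myoblasts (74.6%, interval 62.5 to 84.5). The intervals are exact Clopper-Pearson 95% intervals and cover counting error only. For Sin3A the shares were 66.7% in myotubes and 28.6% in myoblasts with 500 bp as the distance. With peaks at an end of a gene that has no row in the promoter table counted as well, they were 85.2% in myotubes and 42.9% in myoblasts. The intervals of the Sin3A shares meet under either of these settings, though not at 1 kb from a TSS. Such peaks at a gene end, which may be either end of that gene, numbered 14 in all. Sin3A had 0 of them in myotubes and 2 in myoblasts, and Sin3B had 7 in myotubes and 5 in myoblasts. Another 21 lay 1 to 10 kb from the nearest start or end, 5 lay over 10 kb away and 12 were not placed.

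**Figure D1:**
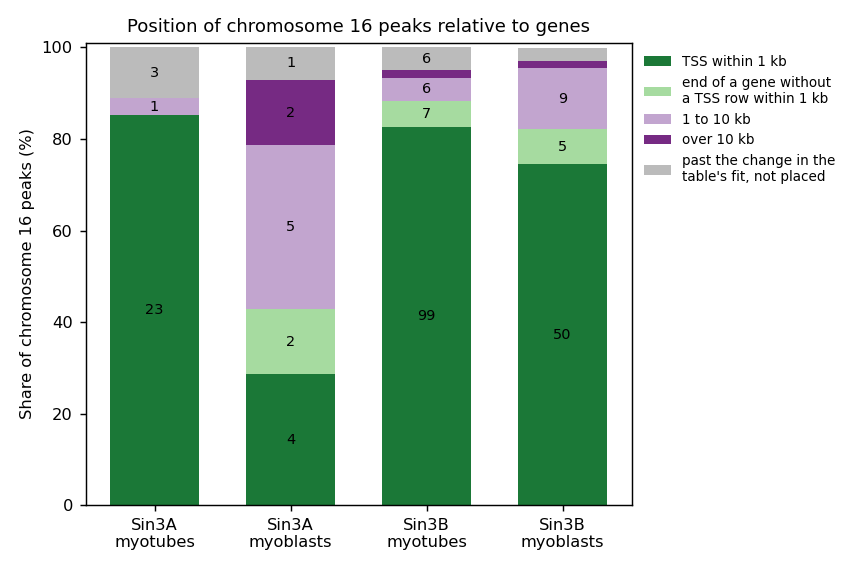
Share of the chromosome 16 peaks of each list (vertical axis, percent) by distance from the peak centre to the nearest TSS, with the number of peaks in each part of a bar. The dark green part holds 23, 4, 99 and 50 peaks from left to right, and it takes a smaller share of the bar in Sin3A myoblasts than in the other lists.

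Median peak widths were slightly higher on chromosome 16 than on the other chromosomes in each list, a difference that was not tested. Median widths on chromosome 16 were, for Sin3A, 506 bp in myotubes and 446 bp in myoblasts, and, for Sin3B, 568.5 bp in myotubes and 530 bp in myoblasts. On the other chromosomes they were 474, 410, 544 and 496.5 bp in the same order. The peaks covered 15 kb, 6.01 kb, 73.4 kb and 37.2 kb of chromosome 16. Width is the only size the lists give, since they hold no height or score, and a wide peak is not shown to be a stronger one. The lists also hold 5 peaks of 11 to 14 bp on this chromosome, all of Sin3B. Of these, 4 were over 1 kb from any TSS and the other was not placed. A site of this kind, at 90065940 to 90065952, with Tiam1 as the nearest start, was listed for Sin3B at both stages, 11 bp wide in myotubes and 13 bp in myoblasts.

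Peaks near a TSS lay a little downstream of it in myotubes. The median centre was 209 bp downstream for Sin3A in myotubes (n = 23 peaks, quartiles 82.5 and 352), with 19 of 23 centres past the start. For Sin3B it was 196 bp downstream in myotubes (n = 99, quartiles -8.75 and 358) and 50 bp downstream in myoblasts (n = 50, quartiles -105.875 and 159.5). The Sin3B centres in myoblasts kept closer to the start, with 80% of them within 250 bp of it, against 51.5% of those in myotubes. The 4 Sin3A centres in myoblasts were at -397.5, -367.5, 177.5 and 217 bp.

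**Figure D2:**
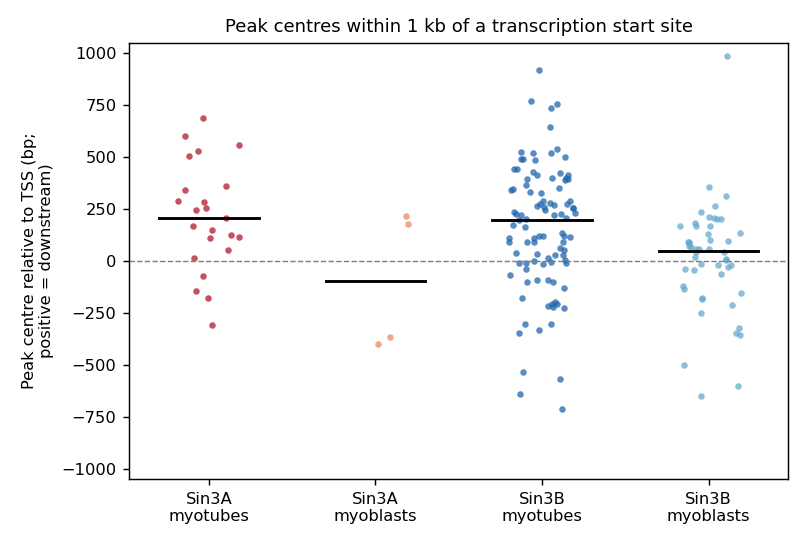
Distance of each peak centre from its TSS in bp (vertical axis, positive downstream) for the peaks within 1 kb of a TSS, by list, 1 point a peak, with the median as a black line. The medians sit at 209, -95, 196 and 50 bp from left to right.

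Gene by gene, a promoter peak is one whose centre lies within 1 kb of a TSS and whose nearest TSS is that gene's. Genes without a row in the promoter table were not named in this way, even where an end of one was nearer to the centre. Such a peak was listed at 23 genes for Sin3A in myotubes, 4 genes for Sin3A in myoblasts, 97 genes for Sin3B in myotubes and 50 genes for Sin3B in myoblasts. In all, 116 genes had one, 7 of them long non-coding RNA genes. Of the 537 protein-coding genes that the promoter table places before the point where the match ended, 4.28%, 0.745%, 16.9% and 8.94% had a promoter peak in these lists, and 20.3% had one in any list.

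Fam162a, a gene for a mitochondrial protein, was the single gene of the chromosome with a promoter peak in all 4 lists. The Sin3A peak was 882 bp wide in myotubes and 454 bp in myoblasts. The Sin3B peak was 985 bp wide in myotubes and 741 bp in myoblasts. The centres were at -307.5 and 177.5 bp for Sin3A in myotubes and in myoblasts, and at -532 and -651 bp for Sin3B in myotubes and in myoblasts, so the Sin3B peaks sat farther upstream. The merged region ran from 36071157 to 36072585. Its printed promoter holds 72.3% G and C bases, 39 CpG pairs and 1 motif match, to SP/KLF.

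A further 8 genes had a promoter peak in 3 lists, and 6 of them lacked only Sin3A in myoblasts. These were Cmss1, Rsl1d1, Abhd10, Yars2, Tomm70a and Polq. Rsl1d1, whose product works in the nucleolus in ribosome biogenesis, had a Sin3A myotube peak of 469 bp and Sin3B peaks of 833 bp in myotubes and 1035 bp in myoblasts. Yars2, the mitochondrial tyrosyl-tRNA synthetase, had peaks of 492, 756 and 500 bp in the same lists. Tomm70a, a receptor of the import machinery in the outer mitochondrial membrane, had peaks of 533, 532 and 728 bp. At Polq, the DNA polymerase theta of end-joining repair, they were 591, 645 and 393 bp. Cmss1 had 694, 1035 and 868 bp, and Abhd10, a mitochondrial thioesterase, had 506, 817 and 389 bp. In these 6 genes the Sin3B myotube peak was the widest at 4 and a Sin3B myoblast peak at the other two.

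The remaining genes with 3 lists held a Sin3A peak in myoblasts. Cfap298, a gene of ciliary motility, had a Sin3A myoblast peak of 438 bp, Sin3B peaks of 1104 bp in myotubes and 453 bp in myoblasts, and no Sin3A myotube peak. Synj1, a phosphoinositide phosphatase of vesicle recycling, had Sin3A peaks of 797 bp in myotubes and 290 bp in myoblasts, a Sin3B myotube peak of 535 bp, and no Sin3B myoblast peak. All 9 genes with 3 or 4 lists had a Sin3B myotube peak.

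**Figure D3:**
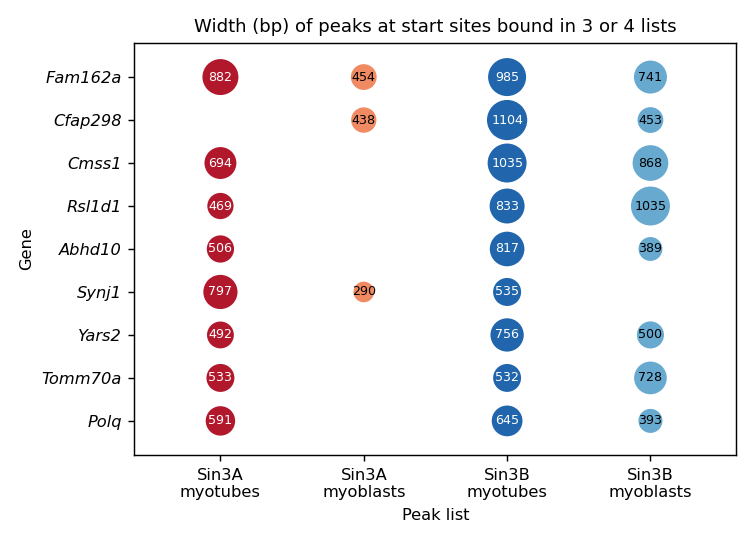
Width in bp (number in each circle, circle area rising with it) of the promoter peak of the 9 genes with a peak in 3 or 4 lists, by list. Fam162a fills all 4 columns, and the Sin3A myoblast column holds 3 circles, at Fam162a, Cfap298 and Synj1.

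The 2 Sin3A lists shared few peaks. Of the 27 Sin3A peaks in myotubes, 3 overlapped a Sin3A myoblast peak by at least 1 bp (11.1%; over all chromosomes 17.3% did), and 3 of the 14 Sin3A peaks in myoblasts overlapped one in myotubes (21.4%; 18.8% over all chromosomes). The shared regions lay at Fam162a, at Synj1 and beside Tfap4, a basic helix-loop-helix transcription factor. The region beside Tfap4, from 4558209 to 4559450, was also in the Sin3B myotube list. Its Sin3A peak in myoblasts was centred 1605 bp from an end of Tfap4, and a second Sin3A myoblast peak of 541 bp was centred 718 bp from that gene's end and was in no other list.

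In myotubes most Sin3A peaks overlapped Sin3B peaks. Of the 27 Sin3A peaks, 22 overlapped a Sin3B myotube peak (81.5%; 81.2% over all chromosomes), and 22 of the 120 Sin3B myotube peaks overlapped a Sin3A one (18.3%; 16.4% over all chromosomes). By gene, 20 of the 23 genes with a Sin3A promoter peak in myotubes had a Sin3B one there too. The Sin3A promoter peak was the narrower of the pair at 16 of these 20 genes. By nearest start, 12 genes had promoter peaks of both proteins in myotubes and of neither in myoblasts. These were 1810013L24Rik, Eif4a2, LOC115488671, Naa50, Atg3, Nubp1, Ranbp1, Urb1, Timmdc1, Cip2a, Anks3 and N6amt1. All 12 are given, though the rule for named genes asked for the 5 with the widest peaks.

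Eif4a2, an RNA helicase of translation initiation, had a Sin3A peak of 375 bp inside a Sin3B peak of 1030 bp. Naa50, an acetyltransferase of protein N-termini, had 884 bp for Sin3A and 814 bp for Sin3B. Atg3, the enzyme that couples LC3 to lipid in autophagy, had 452 bp and 816 bp. Nubp1, an assembly factor for iron-sulphur clusters, had 442 bp and 779 bp, centred at 599.5 and 388 bp downstream of the start. Ranbp1, a cofactor of the Ran transport GTPase, had 530 bp and 712 bp. The widest peak of the whole chromosome, 1404 bp of Sin3B in myotubes, stood at 1810013L24Rik with a Sin3A peak of 867 bp. Urb1, of ribosome biogenesis, had 627 bp for Sin3A and 487 bp for Sin3B. Timmdc1, an assembly factor of respiratory complex I, had 388 bp and 519 bp.

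Ranbp1 shares its start region with Trmt2a, a tRNA methyltransferase gene read in the other direction, and which of the pair was named turned on the list. Both myotube peaks were nearest to the start of Ranbp1. The Sin3B myoblast peak of 788 bp in the same merged region, 18248202 to 18249296, was nearest to that of Trmt2a. The pattern of Ranbp1 as bound in myotubes alone therefore rests on the choice of the nearest TSS. Its printed promoter has the most motif matches of the 7 shown, with 1 E2F match, 3 SP/KLF matches and 1 CCAAT.

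Nsun3, a methyltransferase of mitochondrial tRNA, had a Sin3A promoter peak of 500 bp in myotubes and a Sin3B one of 543 bp in myoblasts, with none for Sin3B in myotubes. Sin3A in myotubes without any other promoter peak was listed at Cldnd1 (467 bp) and at Iqcb1 (383 bp), a gene of the cilium. At Anks3 the Sin3A and Sin3B myotube peaks did not overlap: Sin3A was centred 112.5 bp downstream of the start in 364 bp and Sin3B 568.5 bp upstream in 420 bp.

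Sin3A in myoblasts was the smallest set, and its 14 peaks can be given in full. The 4 at a TSS were those of Fam162a, Cfap298, Synj1 and Adamts1, a secreted metalloprotease, where the peak of 537 bp was the only one at the start. Next to the adjoining ends of Mcm4, a subunit of the replicative helicase, and Prkdc, the catalytic subunit of the DNA-dependent protein kinase, a peak of 730 bp shared its region, 15637037 to 15638101, with Sin3B peaks of 896 bp in myotubes and 456 bp in myoblasts. Apart from the 2 peaks at Tfap4, 1 lay 1324.5 bp downstream of a start of Runx1. Of the others, 1 of 218 bp was centred 6465.5 bp upstream of 1700025H01Rik, 1 of 319 bp lay 2316 bp upstream of Csnka2ip, and 1 of 358 bp lay 2190.5 bp from an end of 4930529L06Rik. The last 3 were 350 bp at 86421297 to 86421646, with Gm32461 as the nearest start, and 202 bp at 91699389 to 91699590, nearest to Gm10785, both over 10 kb from any start or gene end used, and 540 bp at 98143933 to 98144472, which was not placed.

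Peaks of Sin3A in myoblasts that no other list shared mostly had no TSS of the promoter table within 1 kb. Of the 8 regions held by Sin3A in myoblasts alone, 1 lay within 1 kb of a TSS (12.5%). Another was not placed, and that at Tfap4 lay 718 bp from a gene end that may be the start. Among regions held by a single other list, 3 of 4 lay within 1 kb of a TSS for Sin3A in myotubes (75%), 52 of 64 for Sin3B in myotubes (81.2%) and 14 of 24 for Sin3B in myoblasts (58.3%). These totals also hold regions that were not placed. In the myoblast lists 3 of 14 Sin3A peaks overlapped a Sin3B peak (21.4%; 33.1% over all chromosomes), and 3 of 67 Sin3B peaks overlapped a Sin3A one (4.48%; 9.72% over all chromosomes).

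Sin3B gave most of the members and was listed at more genes in myotubes. The labels name 5 Sin3B myotube samples and 2 Sin3B myoblast samples, and neither depth nor pooling of replicates is given. The part of sample number in the longer myotube list was not tested. Of the 120 Sin3B peaks in myotubes, 42 overlapped a Sin3B myoblast peak (35%; 38% over all chromosomes), and 42 of the 67 in myoblasts overlapped a myotube peak (62.7%; 60.2% over all chromosomes). By gene, 34 had a Sin3B promoter peak at both stages. A Sin3B promoter peak at both stages without a Sin3A promoter peak was found at 26 genes. The widest of these were Lsg1, a GTPase of large-subunit export, with 410 bp in myotubes and 1110 bp in myoblasts, and Runx1. Runx1 did have a Sin3A myoblast peak, centred 1324.5 bp downstream of a start and so past the 1 kb set for a promoter peak. Mrpl39, a protein of the mitochondrial ribosome, had 953 and 612 bp, Opa1, the dynamin-like protein that fuses the inner mitochondrial membrane, had 901 and 789 bp, and Nagpa, an enzyme of the lysosomal targeting signal, had 895 and 592 bp, myotubes first in each case.

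Sin3B in myotubes alone was the commonest pattern by nearest start, with 50 genes. At 3 of them, B130034C11Rik, Atp5j and Cluap1, the merged region also held a Sin3B myoblast peak that was nearest to a neighbour's start. The widest of the 50 were the non-coding B130034C11Rik at 1091 bp, Cdip1 at 1056 bp, Ubn1 at 1049 bp, Abcf3 at 955 bp and Eaf2 at 932 bp. The Eaf2 peak was centred 224.5 bp from that start and 42.5 bp from an end of Golgb1, which has no promoter row. Ubn1 encodes a subunit of the HIRA histone chaperone complex. Cdc45, a subunit of the helicase that opens DNA at replication forks, belonged to this set with 776 bp centred 235.5 bp downstream of its start. Its neighbour Ufd1, read in the other direction, had Sin3B peaks of 596 bp in myotubes and 521 bp in myoblasts, centred 398.5 and 311 bp downstream of its own start.

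Sin3B in myoblasts alone was listed at 15 genes by nearest start. At 4 of them, Cct8, Trmt2a, 1700037C18Rik and Gabpa, the merged region also held a Sin3B myotube peak that was nearest to a neighbour's start, so these regions had Sin3B at both stages. The widest were Cct8, a subunit of the cytosolic chaperonin, at 983 bp, Trmt2a at 788 bp, Bfar at 665 bp, Tbc1d23 at 611 bp and Ess2 at 590 bp. The Cct8 peak lay in 1 region, 87495399 to 87496646, with the myotube peak of B130034C11Rik. Gabpa, an ETS-family transcription factor, is counted here with 480 bp centred 11.5 bp from its start. It shares the region 84834570 to 84835375 with its neighbour Atp5j, a subunit of the ATP synthase, and the myotube peak of 354 bp in that region was nearest to the start of Atp5j. A second Sin3B myotube peak of 891 bp was centred 304 bp upstream of the start of Atp5j. The stage at which Gabpa or Atp5j is counted thus turned on the nearest start, as it did at Ranbp1.

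Runx1, a transcription factor of blood and muscle-lineage cells whose gene has 2 start sites, had more regions than any other gene of the chromosome, 7 in all. Its starts lie 128.745 kb apart in the RefSeq table. Sin3B in myotubes had 3 peaks at the upstream start, centred 430, 1199 and 2323 bp downstream of it and 1031, 283 and 589 bp wide, which together covered 1.903 kb. At the downstream start it had 1 peak of 399 bp, centred at 919 bp. Sin3B in myoblasts had no peak at the upstream start and 4 at the downstream start, centred at 354.5, 1339.5, 3307.5 and 3872.5 bp and 546, 1138, 394 and 406 bp wide, 2.484 kb together. The Sin3A myoblast peak of 536 bp lay within the second of these, and no Sin3A myotube peak was listed at either start.

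The groups of Sin3B peaks at Runx1 therefore shared 1 region between stages, 92695421 to 92696609, at the downstream start. As the printed sequences show, the promoter at the upstream start holds 45% G and C bases and 2 CpG pairs, and that at the downstream start holds 69% and 35 CpG pairs. Each holds 2 matches to CCAAT and no match to the other motifs marked in capitals. With 1 list per stage, the difference between stages has no replicate check.

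**Figure D4:**
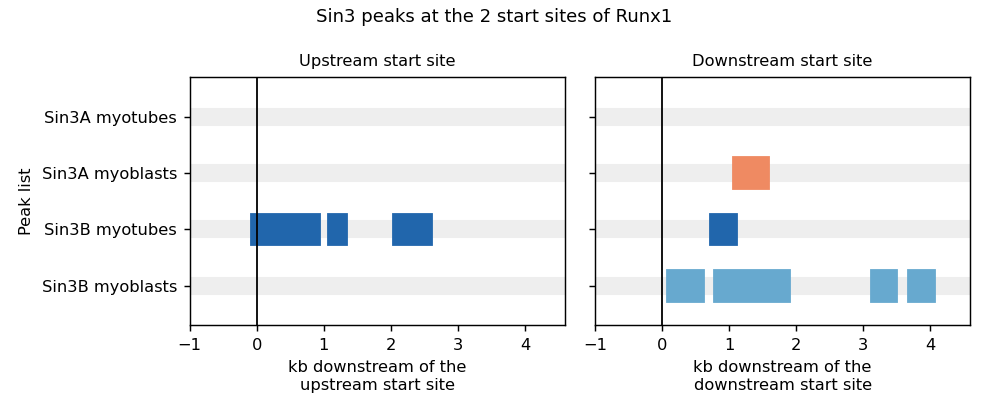
Sin3 peaks at Runx1 by list, drawn as bars over distance in kb downstream of the upstream start (left) and of the downstream start (right). Sin3B in myotubes has 3 bars at the upstream start and 1 at the downstream start, while Sin3B in myoblasts has 4 bars, all at the downstream start.

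The other 12 genes that were nearest to more than 1 region had 2 regions each. At Adamts1 the Sin3A myoblast peak lay at the start, while a Sin3B myoblast peak of 357 bp lay 1655 bp downstream. At Bcl6, a transcriptional repressor, 2 Sin3B myotube peaks of 331 and 268 bp lay 1188 and 1996.5 bp downstream of the start. At Tmem186 the Sin3B peak was centred 260.5 bp downstream of the start in myotubes and 356.5 bp upstream in myoblasts, in regions that did not meet. Pdxdc1 had the same arrangement, 289.5 bp downstream in myotubes and 347.5 bp upstream in myoblasts. The myoblast centre was also 331.5 bp from an end of Mpv17l, which has no promoter row. At Pdia5, a protein disulphide isomerase, a Sin3B myotube peak of 495 bp lay at the start, and the other region was a peak of 12 bp far downstream. The second regions of Gtpbp8 and Yars2 lay at ends of Nepro and Gm41425, which have no promoter row. Likewise, for 4632428C04Rik, D330022H12Rik and Pigx a gene without a promoter row was the nearer: Hes1, a basic helix-loop-helix repressor of the Notch pathway, with Sin3B peaks of 394 bp in myotubes and 392 bp in myoblasts at an end of the gene, Tfap4, and Pak2, a p21-activated kinase, with a Sin3B peak of 295 bp in myotubes.

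Genes were also read by function, from lists made for this chromosome. The count is of listed genes with a promoter peak in any list among those that have a row in the promoter table before the match ended, to be read beside 109 of 537 protein-coding genes (20.3%). Translation and RNA processing held 13 of 19 (68.4%), ubiquitin, SUMO and protein folding 12 of 18 (66.7%), mitochondria 11 of 18 (61.1%) and cell cycle and DNA repair 7 of 16 (43.8%). Transcription and chromatin held 5 of 20 (25%), interferon 1 of 5 (20%), kinases and signalling 2 of 15 (13.3%) and muscle and myogenesis 1 of 11 (9.09%). Of 60 genes in tissue-restricted clusters outside muscle, such as keratin-associated proteins, olfactory receptors and protamines, 0 had one. The lists were put together with earlier results of these data known, and no test was made of them.

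**Figure D5:**
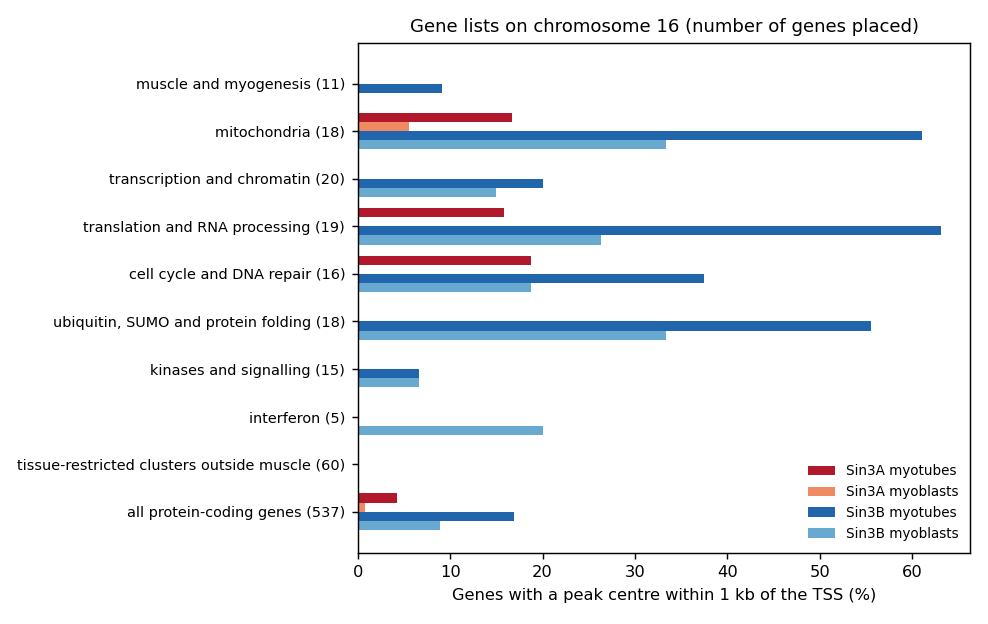
Share of the genes of each list with a promoter peak (horizontal axis, percent), with 1 bar for each peak list and the number of placed genes in brackets. For Sin3B in myotubes the bars of translation and RNA processing, mitochondria and protein folding lie far right of the bar of all protein-coding genes at 16.9%.

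The mitochondrial group drew on several parts of the organelle. Of its 18 genes, 3 had Sin3A in myotubes, 1 Sin3A in myoblasts, 11 Sin3B in myotubes and 6 Sin3B in myoblasts. Over all protein-coding genes the shares were 4.28%, 0.745%, 16.9% and 8.94% in these lists, so Sin3B was at more genes in myotubes there too, and the counts by list in the next groups are to be read beside the same shares. Trap1, a mitochondrial chaperone, had Sin3B peaks of 831 bp in myotubes and 746 bp in myoblasts. Trmt10c, a subunit of mitochondrial RNase P, had 451 and 509 bp. Mrpl40 (333 bp) and Mrps6 (550 bp), proteins of the mitochondrial ribosome, and Parl (324 bp), a protease of the inner membrane, had Sin3B in myotubes alone.

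In the group of translation and RNA processing, with 19 genes, Sin3A was listed at 3 in myotubes and 0 in myoblasts (4.28% and 0.745% of all genes), and Sin3B at 12 in myotubes and 5 in myoblasts (16.9% and 8.94% of all genes). Eif4g1, the scaffold of the cap-binding complex, had a Sin3B myotube peak of 458 bp centred 756.5 bp downstream of the start. Rpl35a, a protein of the large ribosomal subunit, had one of 353 bp. Son and Tra2b, splicing factors, had 561 and 372 bp, and Parn, a ribonuclease that removes poly(A) tails, had 531 bp, all of Sin3B in myotubes alone. Ltn1, a ubiquitin ligase of stalled ribosomes, had Sin3B peaks of 760 bp in myotubes and 748 bp in myoblasts.

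The group of ubiquitin, SUMO and protein folding, with 18 genes, had Sin3A at 0 in myotubes and 0 in myoblasts, where 4.28% and 0.745% of all genes had it. Sin3B was listed at 10 in myotubes and 6 in myoblasts, beside 16.9% and 8.94% of all genes. The deubiquitinases Usp7 (612 bp), Usp16 (485 bp) and Usp25 (413 bp), the ligase Cblb (593 bp) and the SUMO protease Senp2 (843 bp) had Sin3B in myotubes alone. Senp5, another SUMO protease, had 539 bp in myotubes and 587 bp in myoblasts, and Hspbap1 had 423 and 728 bp. Dnajb11, a co-chaperone of the endoplasmic reticulum, had Sin3B in myoblasts alone, with 411 bp. That peak was centred 320 bp from its start and 170 bp from an end of Tbccd1, which has no promoter row.

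Of the 16 genes in the list for cell cycle and DNA repair, 3 had Sin3A in myotubes, Polq, Ranbp1 and Nubp1. In myoblasts 0 had it, beside 4.28% of all genes in myotubes and 0.745% in myoblasts. Sin3B was listed at 6 of them in myotubes and 3 in myoblasts, beside 16.9% and 8.94% of all genes. Rfc4, a subunit of the clamp loader, had Sin3B peaks of 440 bp in myotubes and 673 bp in myoblasts and centred 5.5 and 176 bp upstream of the start, and its printed promoter holds 1 ETS match. Top3b, a topoisomerase, had Sin3B in myoblasts alone, with 474 bp. Mcm4 and Prkdc, genes of replication and repair, were not put in this list and have no promoter row. The Sin3A myoblast peak of 730 bp and the Sin3B peaks at their adjoining ends therefore stand outside these counts.

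Among regulators, Zbtb11 had Sin3B peaks of 659 bp in myotubes and 525 bp in myoblasts, and Bach1, a repressor sensitive to haem, had 389 bp in myotubes alone. Crkl, an adaptor of signalling kinases, had 378 bp of Sin3B in myotubes. Socs1, an inhibitor of cytokine signalling that stands in both the signalling and the interferon list, had 422 bp of Sin3B in myoblasts. The one muscle list gene was Dlg1, a scaffold of membrane junctions, with 394 bp of Sin3B in myotubes centred 411.5 bp downstream of its start. Mylk, Fbxo40, Popdc2, Myh15, Mrtfb, Igf2bp2, Rcan1, Itgb5, Fstl1 and Alcam had no promoter peak in any list, and Srl, Boc, Myh11 and Cxadr, which have no promoter row, had none at a gene end.

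Promoters with a peak were richer in G, C and CpG than those without. The 112 promoters of protein-coding genes with a peak in any list, where a gene with several starts can count more than once, had a median of 62.2% G and C bases and 22.5 CpG pairs. The 512 promoters of the placed part of chromosome 16 without a peak had 53% and 8, and the 21263 promoters of the whole table had 56.3% and 13. A promoter counted as having a peak only where its start was the nearest to a peak centre. Starts within 1 kb of a peak centre that was nearer to another start can thus stand among the 512. The medians by list were 65.7% for Sin3A in myotubes, 68% for Sin3A in myoblasts, 62.3% for Sin3B in myotubes and 60.5% for Sin3B in myoblasts. Of the printed promoters, that of Cdc45 had the lowest share of G and C bases, 38.7%, with 11 CpG pairs. The promoter at the upstream start of Runx1 had the fewest CpG pairs, 2, with 45% G and C bases.

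The ETS motif was in 33% of the promoters with a peak, 9.77% of those without and 11.6% of all promoters of the table. YY1 was in 9.82%, 1.56% and 1.83% of them, E2F in 4.46%, 1.17% and 2.02%, NRF1 in 5.36%, 2.34% and 2.35%, and SP/KLF in 59.8%, 40.4% and 46.2%. CCAAT was in 42%, 37.1% and 38.2%. The E-box CANNTG was in 56.2%, 69.7% and 69%, its myogenic form CAGCTG in 16.1%, 16% and 15.6%, and MEF2 in 0.893%, 1.56% and 0.861%. CAGCTG is a case of CANNTG, and matches of different motifs may share bases. The part of base composition in these shares was not tested, and a match is no evidence of a bound factor.

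A start of another gene on the opposite strand lay within 1 kb of 27 of the 112 promoters with a peak (24.1%), against 55 of the 512 without (10.7%). The share was 30.4% for Sin3A in myotubes, 25% for Sin3A in myoblasts, 22.6% for Sin3B in myotubes and 20.8% for Sin3B in myoblasts. The 512 can hold the partner of a promoter with a peak, since each peak was given to its nearest start alone. With every gene within 1 kb of a peak centre counted, these lists held 30, 5, 117 and 63 genes, against 23, 4, 97 and 50 by nearest start. At such pairs, among them Cdc45 with Ufd1, Ranbp1 with Trmt2a and Atp5j with Gabpa, a peak cannot be given to one gene with certainty.

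The mix of patterns on chromosome 16 was set beside that of the other 19 chromosomes, where 4980 regions were merged in the same way. Regions of Sin3B in myotubes alone made up 40.8% of those on chromosome 16 and 37.9% elsewhere, Sin3B at both stages 19.7% and 19.5%, and Sin3B in myoblasts alone 15.3% and 17.2%. Both proteins in myotubes alone made up 7.64% and 5.24%, Sin3A in myoblasts alone 5.1% and 6.77%, and all 4 lists 0.637% and 1.67%. The pairs of Sin3A in myoblasts with a single Sin3B list had 0 regions on chromosome 16 (0%, interval 0 to 2.32 for either pair). Elsewhere they made up 1.29% with Sin3B myotubes (64 regions) and 0.884% with Sin3B myoblasts (44 regions), shares that lie inside that interval. None of the overlaps between lists was shown to differ from those elsewhere: of 8 two-sided Fisher's exact tests of chromosome 16 peaks against the other peaks of a list, 0 had an adjusted or an unadjusted p under 0.05, and the lowest unadjusted p was 0.205, with a Benjamini-Hochberg adjusted p of 0.839.

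Peaks and genes were also counted in stretches of 5 Mb. The 5 Mb from 15 to 20 Mb held 28 peaks and 85 protein-coding genes, and the 5 Mb from 90 to 95 Mb held 33 peaks and 52 such genes, with the 9 peaks at Runx1 and part of the peaks that were not placed among them. From 85 to 90 Mb, where keratin-associated protein genes are clustered, there were 12 peaks and 72 genes. Between 65 and 80 Mb there were 2 peaks, both of Sin3B in myotubes: 1 from 65 to 70 Mb with 6 genes, 0 from 70 to 75 Mb with 3 genes and 1 from 75 to 80 Mb with 11 genes.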

How the data were processed

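Lists of ChIP-seq peaks of Sin3A and Sin3B in C2C12 myotubes and myoblasts were used. Per the labels' protocols, libraries were amplified for 18 cycles, cut at about 350 bp and sequenced on an Illumina Genome Analyzer. The lists deposited by the authors hold 3 fields, chromosome, start and end, and 0 columns of score or height. Aligner, peak caller, threshold, genome build and depth were not given in any source used here, nor was whether replicates were pooled before peaks were called. Depth therefore sets no interval here, and intervals on shares of peaks are exact Clopper-Pearson 95% intervals for counting error only. Files of 1 group were identical and were counted once. The Sin3A myoblast samples carry 2 antibody lots in the labels.

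Starts were turned to 1-based positions, and peaks overlapping by at least 1 bp were merged. Peak centres were matched to the nearest TSS of the RefSeq promoter table (GRCm38.p6), which has rows for 568 of the 679 protein-coding genes of chromosome 16. For genes with no row, either end in the RefSeq gene table was used as a separate class. The members and gene lists were chosen with earlier results of these data known. Genes were named by rule: those with a promoter peak in 3 or 4 lists, the 5 widest of each other pattern, genes of the function lists with a promoter peak, genes nearest to more than 1 region, and the widest regions over 10 kb from a start. Overlaps were compared with Fisher's exact test and Benjamini-Hochberg adjustment over 8 tests, in Python 3.11.15 with scipy 1.17.1, pandas 2.3.3 and numpy 2.4.6, after the functions were tested on simulated data. Alternatives were other distances to the TSS (500 bp and 2 kb), protein-coding starts alone, the nearest base of a peak, the widest 50% of the peaks, 50% overlap, peaks of at least 50 bp and leaving out X.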

Additional observations from a re-analysis of the deposited data

How the results depend on the processing

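Of 99 values under alternatives, 13 moved or changed sign. Keeping the widest 50% of the peaks of each list left 10, 2, 54 and 29 genes with a promoter peak for Sin3A in myotubes, Sin3A in myoblasts, Sin3B in myotubes and Sin3B in myoblasts, since fewer peaks enter, and gave TSS shares of 71.4% for Sin3A in myotubes, 28.6% for Sin3A in myoblasts, 90% for Sin3B in myotubes and 85.3% for Sin3B in myoblasts. With 500 bp as the distance, the TSS share was 66.7% for Sin3A in myotubes and 71.7% for Sin3B in myotubes. At 1 kb but among placed peaks alone, that of Sin3A in myotubes was 95.8%. The stretch of placed peaks was itself set by the match to TSSs, so this share could only rise. The difference of chromosome 16 minus the rest in overlap fell below 0 in 5 cases where it had been positive, at no time with an adjusted p under 0.05 in 40 alternatives (range 0.477 to 1). With 50% overlap it was -9.55 points for Sin3A myoblast peaks in Sin3A myotube peaks and -7.77 points for Sin3A myotube peaks in Sin3B myotube peaks. With the widest 50% it was -3.33 points for Sin3B myoblast peaks in Sin3B myotube peaks and -4.8 points for Sin3A myotube peaks in Sin3B myotube peaks, and without X the last was -0.174 points. The cause was not tested. Gene ends for genes without a promoter row, an alternative chosen after seeing the data, moved none of the 4 TSS shares beyond its interval. Leaving out 1 replicate could change none of 17 results, since the files of a group are identical, which says nothing about stability. These 17 are counted among the 99 values, and the overlap tests among them are counted in the 40 alternatives. No paired analysis was possible because the files of each group hold the same peaks, so the replicate numbers carry no values of their own. With 14 Sin3A myoblast peaks, shares in that list are loose.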
